A study of Mus musculus with 8 samples.

Results

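The miR-106b-25 cluster is a group of 3 microRNA genes, miR-106b, miR-93 and miR-25, that are copied together as part of the transcript of Mcm7, a subunit of the helicase that unwinds DNA for replication. Its members were taken by name from the deposited PCR tables: mmu-miR-106b, mmu-miR-93 and mmu-miR-25 each had 1 assay, so the cluster contributed 3 of 757 distinct assays. Real-time PCR was used to measure microRNAs in sorted CD34+/CD105- cells, obtained from collagenase-digested renal artery of 8 mice. In 4 mice both renal arteries had been clamped and blood flow restored (renal ischemia/reperfusion injury), and 4 mice had sham surgery. All samples share the tissue and the sort. For strain, age, and the length of ischemia and of reperfusion, the labels give no value. The sort itself limits the model, since cells carrying CD105 (endoglin), a surface protein of endothelial and mesenchymal stromal cells, were left out.

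MicroRNAs guide the silencing complex to messenger RNAs mainly through the seed, the bases from position 2 to position 8. The cluster is known as a paralog of the clusters that hold miR-17 and miR-106a, and it restrains cell-cycle brakes and pro-apoptotic genes: miR-106b and miR-93 are known to target Cdkn1a (p21), and miR-25 is known to target Bcl2l11 (Bim). Its host gene is driven by E2F factors, which also switch on other genes of DNA replication. In blood vessels, members of these families have been linked to the growth and survival of endothelial cells.

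The mature sequences are shown because they split the cluster by seed and name the paralogs it can be compared with. They come from RefSeq (GRCm38.p6), are written 5′ to 3′, and carry the seed in capitals.
miR-106b: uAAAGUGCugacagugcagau
miR-93: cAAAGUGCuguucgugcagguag
miR-17: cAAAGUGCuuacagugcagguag
miR-20a: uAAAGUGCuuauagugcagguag
miR-25: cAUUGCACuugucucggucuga
miR-92a: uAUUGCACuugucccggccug
miR-363: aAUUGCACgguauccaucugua
miR-106b and miR-93 have the same seed as miR-17 and miR-20a, and miR-25 has the seed of miR-92a and miR-363. Aligned from the 5′ end without gaps, miR-25 and miR-92a are identical at 18 of 21 positions, and miR-25 and miR-363 at 9 of 22. miR-106b and miR-93 are identical at 16 of 21 positions, and miR-106b and miR-17 at 18 of 21. miR-106b and miR-25, which lie in the same transcript, are identical at 5 of 21.

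All 3 hairpins lie on the minus strand of chromosome 5, inside the bounds of Mcm7 (chr5:138164583-138172111, minus strand) and are known to be intronic. The mature miR-106b maps to chr5:138165787-138165807, miR-93 to chr5:138165574-138165596 and miR-25 to chr5:138165332-138165353. From the first base of the Mir25 hairpin to the last base of the Mir106b hairpin the cluster spans 498 bases. The Mcm7 messenger RNA itself was not measured.

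The readout is the threshold cycle (Ct), the PCR cycle at which a product becomes visible, so a lower Ct means more RNA. An assay was counted as detected below Ct 35. Across the 8 mice, 75 to 163 of 750 miRNA assays were detected, with the fewest in sham mouse 2, and 54 were detected in every mouse. The endothelial miR-126-3p and miR-126-5p were detected in all 8 mice, and the erythroid markers miR-451 and miR-144 in none. Of 6 leukocyte markers 5 were detected in at least 1 mouse, and 3 of them, miR-223, miR-150 and miR-155, in all 8. Of 8 markers of epithelium and kidney tubule, 3 were seen in any mouse, miR-192 and miR-194 in sham mice alone. Of the smooth muscle markers, miR-145 was detected in all 8 mice and miR-143 in 2 sham mice, and their summed level (2 to the power of minus delta Ct) ranged from 0.000309 to 0.00289 in sham and from 0.000159 to 0.000684 in injured mice. Of the fibroblast and mesenchymal markers, miR-199a-3p was detected in all 8 mice and mmu-miR-214 in all but sham mouse 2. Their summed levels ranged from 0.000338 to 0.0156 in sham and from 0.000427 to 0.00227 in injured mice. Another assay, hsa-miR-214, was detected in all 8 mice at a mean Ct of 27.33 and is not in that sum. The endothelial sum ranged from 0.0377 to 0.113 in sham and from 0.0181 to 0.0380 in injured mice. The leukocyte sum ranged from 0.00665 to 0.0332 in sham and from 0.00485 to 0.0587 in injured mice. It leaves out another assay, hsa-miR-223, detected in all 8 mice at a mean Ct of 30.25. The epithelial and tubule sum reached 0.361 in sham, above the endothelial maximum, and 0.0352 in injured mice, and was 0 in some mice of each group. The lowest Ct of miR-194 was 20.47. The part of these cell types in the results below was not tested. In sorted cells, fewer cells of a type and less RNA per cell cannot be told apart.

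The cluster was detected in part. miR-106b and miR-25 were detected in all 8 mice, and miR-93, which lies between them in the genome, had no Ct in any of the 8. No level or difference can therefore be given for miR-93. The passenger arms, the strands of each hairpin that are usually degraded, were assayed as hsa-miR-106b#, hsa-miR-93# and rno-miR-25#. These assays are named for the human or rat miRNA, and whether their probes match the mouse arms was not tested, so their values may not speak for the mouse arms. hsa-miR-106b# and rno-miR-25# had no Ct in any mouse. hsa-miR-93# had a Ct in 6 mice and was below Ct 35 in 2 of them, sham mouse 4 at Ct 32.08 and ischemia/reperfusion mouse 1 at Ct 34.03. The other wells of that assay with a Ct lay between 35.06 and 39.81. For hsa-miR-93#, the fold in the authors' deposited table is 8.67, a value that includes those late wells.

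miR-106b, which shares its seed with the proliferation-linked miR-17, gave nearly the same Ct in every mouse. The Ct of miR-106b was 26.42, 26.65, 26.73 and 27.08 in sham mice 1 to 4. The Ct of miR-106b was 26.58, 27.33, 27.18 and 27.74 in ischemia/reperfusion mice 1 to 4. The groups overlapped, because ischemia/reperfusion mouse 1 lay within the sham values. The mean Ct of miR-106b rested at 26.72 ± 0.27 in the sham mice (SD, n = 4) and at 27.21 ± 0.48 in the injured mice (SD, n = 4), a difference of 0.49 cycles (exact two-sided permutation p = 0.143).

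miR-25, the member with the miR-92a seed, varied more. The Ct of miR-25 was 30.18, 29.56, 27.82 and 28.41 in sham mice 1 to 4. The Ct of miR-25 was 28.66, 30.08, 28.31 and 29.94 in ischemia/reperfusion mice 1 to 4. Both groups held mice near Ct 28 and near Ct 30, and they overlapped over most of their range. The mean Ct of miR-25 rested at 28.99 ± 1.07 in the sham mice (SD, n = 4) and at 29.25 ± 0.89 in the injured mice (SD, n = 4), a difference of 0.25 cycles (exact two-sided permutation p = 0.657). Among the 54 miRNAs detected in every mouse, 3 (5.56%) had Ct values that did not overlap between the groups, all with less RNA after ischemia/reperfusion, and 0 (0.0%) with more.

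**Figure D1:**
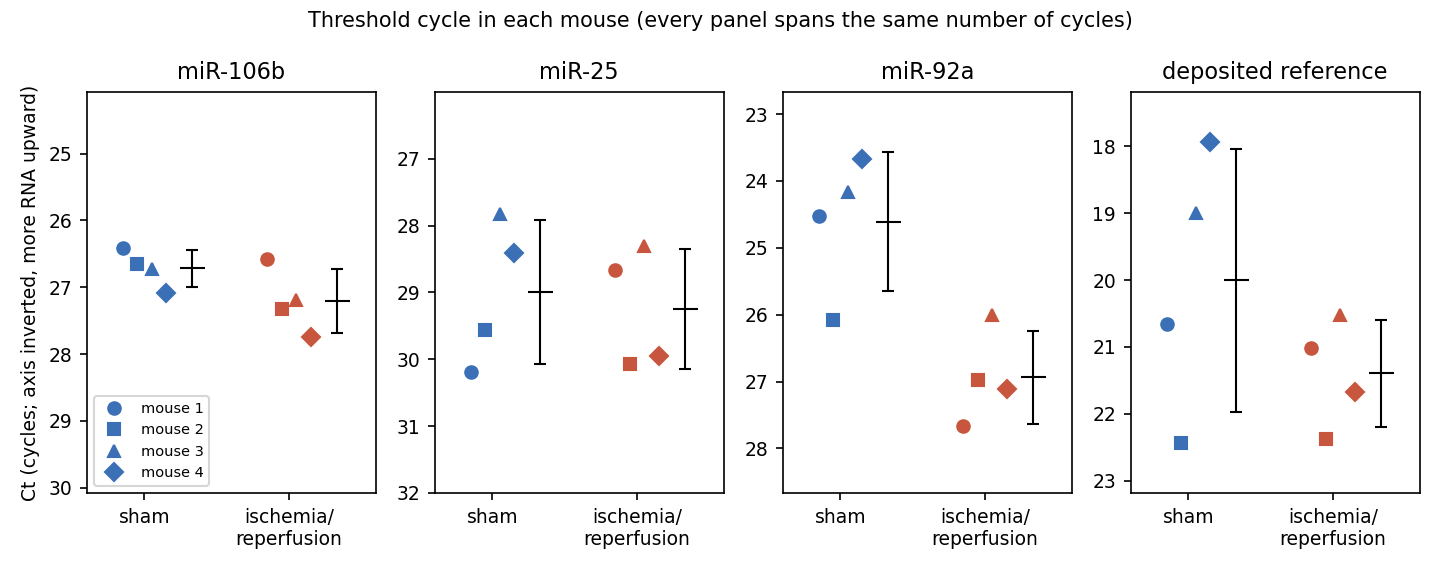
Threshold cycle (Ct, inverted axis) of miR-106b, miR-25, miR-92a and the deposited reference in each mouse, with the sham mice in blue and the ischemia/reperfusion mice in red. Symbols number the mice within a group and bars are the mean ± SD of 4 mice. On axes of equal span, miR-106b stays within 1.32 cycles over all 8 mice while the reference ranges over 4.51 cycles.

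The small spread of miR-106b set it near the edge of the measured miRNAs. Its SD over the 8 mice was 0.45 cycles, the 2nd lowest of the 54 miRNAs detected in every mouse. The lowest was that of mmu-miR-29b#, and the median of the 54 was 1.84 cycles. miR-25, with an SD of 0.92 cycles, ranked 9th, and miR-92a, with 1.49 cycles, ranked 18th. The assays were split over 2 cards, each with its own deposited reference, the value the authors subtracted from each Ct. Over the same mice the reference of the members' card had an SD of 1.58 cycles. After subtraction the SD of miR-106b was 1.57 log2 units, rank 42 from the lowest of the 54.

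**Figure D2:**
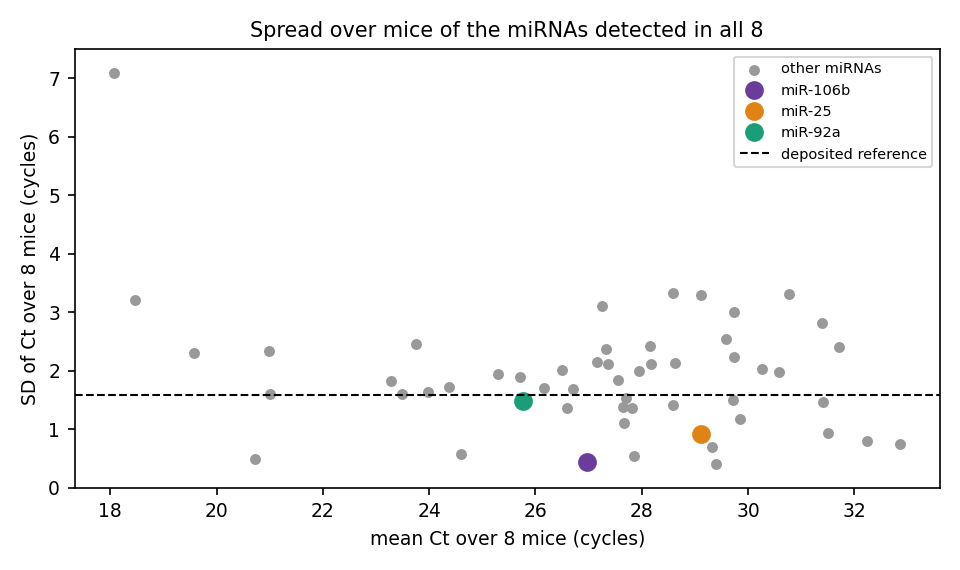
SD of Ct over the 8 mice against mean Ct for the 54 miRNAs detected in every mouse, both in cycles. The dashed line is at the SD of the deposited reference of the members' card. miR-106b, at a mean Ct of 27.0 and an SD of 0.45, lies at the lower edge, miR-25 at 0.92 above it, and miR-92a at 1.49 close to the reference.

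miR-106b also did not follow the reference from mouse to mouse, a relation computed after its values had been seen. Between the Ct of miR-106b and that of the deposited reference, Pearson's r was 0.15 (exact permutation p = 0.709, adjusted p = 0.945) and Spearman's rho was 0.095 (exact permutation p = 0.840, adjusted p = 0.882) over 8 mice. Without the 2 mice farthest from the median reference, sham mice 3 and 4, Pearson's r was 0.27. Among the 53 other miRNAs detected in every mouse, the median r with the reference was 0.79, and 5 had a lower r than miR-106b. For all of them this was the reference of the members' card, also for miRNAs on the other card. For miR-25 the same r was 0.71 (exact permutation p = 0.0489, adjusted p = 0.0978) and rho was 0.62 (exact permutation p = 0.115, adjusted p = 0.230), and 21 of 53 other miRNAs had a lower r. Without sham mice 3 and 4 the r of miR-25 was 0.48. Against snoRNA202, a small nucleolar RNA used as a control assay, r was -0.014 for miR-106b and 0.70 for miR-25 (exact permutation p = 0.972 and 0.0411, adjusted p = 0.972 and 0.0978), with rho at 0.071 and 0.71 (exact permutation p = 0.882 and 0.0576, adjusted p = 0.882 and 0.230). Without sham mice 2 and 4 these r were 0.42 and 0.94. The p-values were adjusted over these 4 relations.

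Levels relative to the deposited reference are given as minus delta Ct, where 1 unit is a 2-fold difference if PCR is fully efficient and a higher value means more RNA. On this scale miR-106b was at -5.77, -4.20, -7.73 and -9.14 in sham mice 1 to 4. miR-106b was at -5.56, -4.96, -6.66 and -6.07 in ischemia/reperfusion mice 1 to 4. The highest and the lowest of the 8 levels, those of sham mice 2 and 4, were both in the sham group, and the ischemia/reperfusion levels lay between them. The sham mice differed in the same order in the reference, whose Ct was 22.44 in sham mouse 2 and 17.94 in sham mouse 4, against Ct 26.65 and 27.08 for miR-106b.

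For miR-25 the level on this scale was -9.53, -7.12, -8.83 and -10.48 in sham mice 1 to 4. The level of miR-25 was -7.64, -7.70, -7.79 and -8.27 in ischemia/reperfusion mice 1 to 4. All 4 ischemia/reperfusion levels exceeded those of 3 sham mice and lay below that of sham mouse 2. Levels that did not overlap between the groups were found for 2 of the 54 (3.7%), both lower after ischemia/reperfusion, and for 0 in the other direction (0.0%). The SD of the ischemia/reperfusion levels was 0.29 log2 units, against 1.42 in the sham mice.

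Both measured members had higher mean levels after ischemia/reperfusion against the deposited reference, and neither passed the test. The log2 difference of miR-106b came to 0.90 ± 1.05 (SE from 4 mice a group, 95% interval -1.49 to 3.30, adjusted p = 0.626). That of miR-25 came to 1.14 ± 0.76 (SE from 4 mice a group, 95% interval -0.58 to 2.85, adjusted p = 0.510). These are limma values with Benjamini-Hochberg adjustment over the 72 miRNAs tested, of which 0 (0.0%) passed 0.05. At an unadjusted p under 0.05 limma gave 10 of 72 that were lower (13.9%) and 0 that were higher (0.0%), and neither member was among them. Higher mean levels were found for 23 of 72 miRNAs (31.9%), and the median log2 difference of the 72 was -0.80. miR-25 stood 6th and miR-106b 11th of the 72 from the highest difference. The folds in the authors' deposited table are 1.87 for miR-106b and 2.20 for miR-25, with none for miR-93.

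These differences moved with single sham mice. Without sham mouse 4 the log2 difference was 0.090 for miR-106b and 0.64 for miR-25. Without sham mouse 2, the mouse with the fewest detected assays, it was 1.74 for miR-106b and 1.76 for miR-25 (limma adjusted p = 0.273 and 0.211). Without sham mouse 3 that of miR-106b was 0.56.

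The sign depended on the reference. With the average Ct of the 54 miRNAs found in every mouse as reference, the log2 difference was 1.20 ± 0.85 for miR-106b and 1.44 ± 0.76 for miR-25 (SE, n = 4 per group). Against snoRNA202 it was 0.22 ± 1.04 and 0.45 ± 0.77. With Ct alone it turned to -0.49 ± 0.65 and -0.25 ± 0.83. The median of the 72 miRNAs moved with it, at -0.24, -1.22 and -1.93 in that order. Under each of the 4 scalings both members lay above that median, which is 1 result and not several. A reference shared by the assays of a mouse moves them together and leaves the distance to the median nearly fixed. Higher mean levels were found for 31 of 72 miRNAs (43.1%) against that average, for 16 (22.2%) against snoRNA202 and for 7 (9.72%) with Ct alone. On the members' card the deposited reference itself had a mean Ct of 20.01 ± 1.97 in the sham mice and 21.40 ± 0.80 in the injured mice (SD, 4 mice a group). The difference was 1.39 cycles (exact two-sided permutation p = 0.286).

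**Figure D3:**
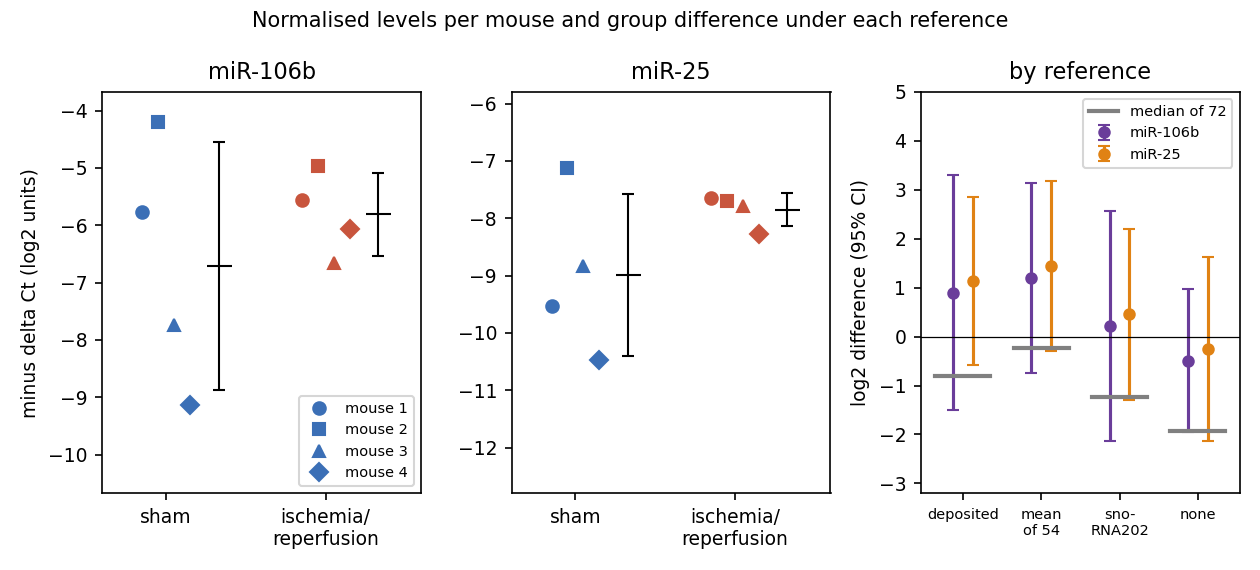
Left and middle, level of miR-106b and of miR-25 in each mouse as minus delta Ct in log2 units, with bars for the mean ± SD of 4 mice. Right, their log2 difference, ischemia/reperfusion against sham, with 95% intervals under 4 scalings, and the median of the 72 tested miRNAs in grey. All 8 intervals include 0, and both members move from above 0 to below 0 when no reference is used.

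Setting 1 miRNA against another in the same mouse removes the reference, since these assays share 1 card and hence 1 reference value. Of the 16 pairs of members with each other or with seed-sharing paralogs, 3 had both assays detected in at least 3 mice of each group, and p-values were adjusted over those 3. With 4 against 4 mice the smallest exact p is 0.0286, so a single pair of the 3 cannot fall below an adjusted p of 0.0857.

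Within the cluster, the balance of miR-106b to miR-25 did not differ between the groups beyond the spread of the mice. miR-106b exceeded miR-25 by 3.76, 2.91, 1.09 and 1.33 log2 units in sham mice 1 to 4. The excess was 2.09, 2.74, 1.13 and 2.20 log2 units in ischemia/reperfusion mice 1 to 4. All 8 values were above 0, and the groups overlapped throughout. A positive value compares 2 assays whose efficiencies are unknown and is no ratio of molecules. The group difference was -0.23 log2 units (exact two-sided permutation p = 0.743, adjusted p = 0.943), and shifts between -2.63 and 1.64 kept an exact p above 0.05, so the data do not show that the balance stayed the same.

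Relative to miR-92a, the paralog with its seed, miR-25 was higher in every ischemia/reperfusion mouse than in any sham mouse, but the difference did not pass after adjustment. miR-25 minus miR-92a was -5.66, -3.47, -3.66 and -4.73 log2 units in sham mice 1 to 4. It was -0.998, -3.10, -2.31 and -2.84 log2 units in ischemia/reperfusion mice 1 to 4. The groups did not overlap: the lowest ischemia/reperfusion value lay above the highest sham value. The difference was 2.07 log2 units, a 4.20-fold shift of the ratio, from -4.38 ± 1.01 to -2.31 ± 0.93 (SD, n = 4 per group), with an exact two-sided permutation p of 0.0286 and an adjusted p of 0.0857. Shifts between 0.38 and 4.65 log2 units kept an exact p above 0.05. By limma on the same values, a test added after the data were seen, the adjusted p over the 3 pairs was 0.0309.

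miR-92a itself, a product of paralogous clusters on chromosomes 14 and X, differed more in Ct than miR-25. The Ct of miR-92a was 24.53, 26.08, 24.16 and 23.68 in sham mice 1 to 4. The Ct of miR-92a was 27.66, 26.98, 26.00 and 27.11 in ischemia/reperfusion mice 1 to 4. Its mean Ct was 2.33 cycles higher after ischemia/reperfusion (exact two-sided permutation p = 0.0571), beside 0.25 cycles for miR-25. The shift was not found for that pair alone: miR-25 minus each of the 53 other miRNAs detected in every mouse gave groups that did not overlap, higher after ischemia/reperfusion, in 7 cases (13.2%), miR-92a among them. For 49 of the 53 the mean difference was above 0, with a median of 1.55 log2 units. In 19 of the 53, miR-92a included, it was at least as large as the difference for miR-92a. For miR-106b the groups did not overlap in 3 of 53 cases (5.66%), and the median difference was 1.31 log2 units. None of the 53 gave groups lower after ischemia/reperfusion without overlap for either member (0.0%). These differences were taken on minus delta Ct. For miRNAs on the other card the gap between the card references stays in, so the counts are not free of the reference.

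miR-363, which also carries the miR-25 seed and was detected in all 8 mice, did not separate from miR-25 between the groups. miR-25 exceeded miR-363 by 2.74, 2.04, 4.00 and 3.90 log2 units in sham mice 1 to 4. The excess was 2.09, 2.59, 4.77 and 2.83 log2 units in ischemia/reperfusion mice 1 to 4. The groups overlapped, with a difference of -0.10 log2 units (exact two-sided permutation p = 0.943, adjusted p = 0.943) and shifts between -1.91 and 2.73 kept an exact p above 0.05.

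**Figure D4:**
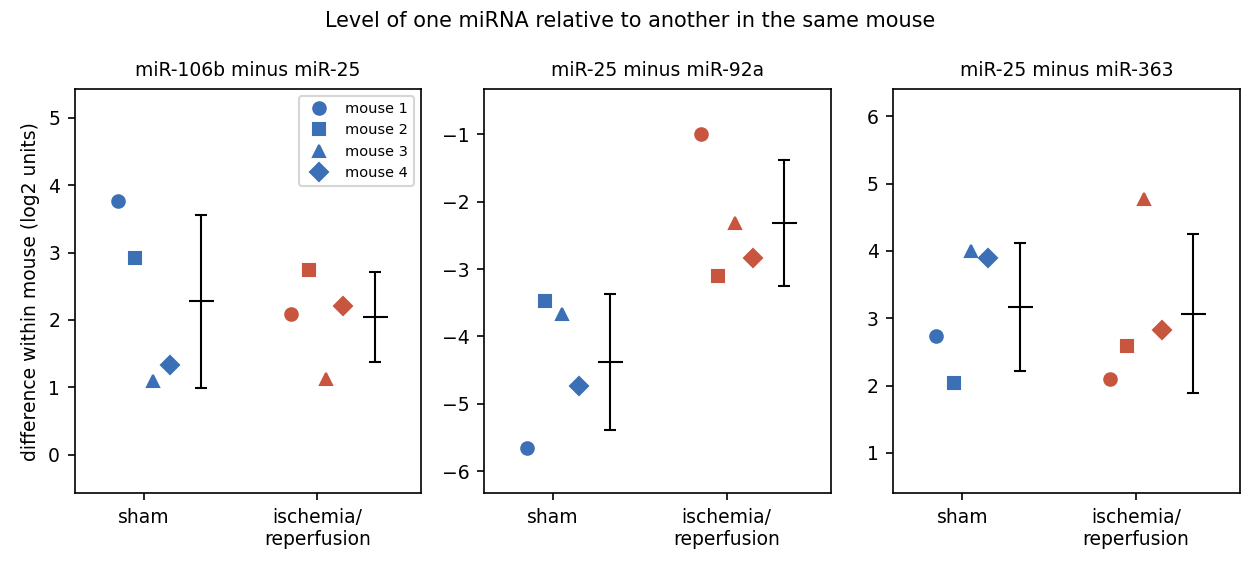
Difference in minus delta Ct between 2 miRNAs of the same mouse, in log2 units, for miR-106b minus miR-25, miR-25 minus miR-92a and miR-25 minus miR-363, with bars for the mean ± SD of 4 mice. The sham and ischemia/reperfusion mice separate for miR-25 minus miR-92a, at -5.66 to -3.47 and -3.10 to -0.998, and overlap in the other panels.

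Of the 13 paralogs that share a seed or a cluster family with the 3 members, 12 had an assay, 7 were detected in at least 1 mouse and 3 could be tested. Of those 3, miR-363 had a higher mean level (1.24 ± 1.14 log2 units, SE, n = 4 per group). miR-92a (-0.93 ± 0.71) and miR-19b (-0.41 ± 0.58) had lower ones. None passed (limma adjusted p from 0.552 to 0.666), and their median log2 difference was -0.41 beside -0.80 for the 72.

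None of the paralogs with the miR-106b and miR-93 seed was detected in all 8 mice. Of miR-17, miR-20a, miR-20b and miR-106a, the last 2 had no Ct in any mouse. miR-17 was detected in sham mouse 4 alone, at Ct 25.92, a lower Ct than miR-106b had in any mouse. miR-20a was detected in 3 sham mice, at Ct 31.02, 25.80 and 25.001 in mice 1, 3 and 4, and in ischemia/reperfusion mice 1 and 2 at Ct 27.80 and 31.89. miR-106b was thus the only one of these 6 miRNAs, miR-93 included, with a Ct in all 8 mice. Of the other miR-25 seed relatives, miR-32 had no Ct, and miR-367 was detected in 3 sham mice and 1 ischemia/reperfusion mouse, at Ct 33.18 to 34.99.

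Across mice, the levels of miR-106b and miR-25 against the deposited reference rose and fell together, with a Pearson's r of 0.80 (exact permutation p = 0.0173) and a Spearman's rho of 0.81 (exact permutation p = 0.0218, n = 8). Both levels hold the same reference value, whose SD of 1.58 cycles exceeds the Ct SDs of the members (0.45 and 0.92). Permuting the mice breaks that shared term, so these p-values cannot test the members apart from it. With Ct alone r was 0.17 (exact permutation p = 0.676) and rho was -0.071 (exact permutation p = 0.882), and without sham mice 3 and 4 the r against the reference was 0.45 (exact permutation p = 0.379). The relation against the deposited reference was thus weaker without those mice. No other mice were left out of it for comparison. Against the mean Ct of the 54 miRNAs, another value that both levels share, r was 0.73 (exact permutation p = 0.0417) and rho was 0.71 (exact permutation p = 0.0576). Without the same mice that r was 0.72 (exact permutation p = 0.0972, n = 6). miR-106b with miR-25 was the only 1 of 3 member pairs that could be computed, so no adjustment was due.

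The levels most like that of miR-106b over the 8 mice, by Pearson's r on minus delta Ct, were those of miR-188-5p (0.98), mmu-miR-29b# (0.96) and mmu-miR-2138 (0.94). For miR-25 they were hsa-miR-378 (0.92), mmu-miR-29b# (0.89) and miR-363 (0.86). miR-25 ranked 9th of 53 for miR-106b, and miR-106b 5th of 53 for miR-25. miR-92a had an r of 0.47 with miR-106b and 0.095 with miR-25. The levels of miR-188-5p, miR-363 and miR-92a share the reference value of the members. Those of mmu-miR-29b#, mmu-miR-2138 and hsa-miR-378 hold the reference of the other card, measured in the same mice. With Ct alone, mmu-miR-29b# (r = 0.71) and miR-188-5p (0.70) were still the miRNAs ranked 1st and 2nd for miR-106b, while mmu-miR-2138 had an r of -0.17. With miR-25 the r on Ct alone was 0.56 for mmu-miR-29b#, 0.35 for miR-363 and 0.34 for hsa-miR-378. The 4 miRNAs that are named here for miR-106b or miR-25 and are no relative of theirs were themselves among the 6 with the smallest SD of Ct over the mice, between 0.41 and 0.69 cycles.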

How the data were processed

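Renal artery cells were sorted by flow cytometry and RNA was isolated with a mirVana kit, per the labels' protocols. The deposited Ct table gives cycles from a 7900HT Fast instrument. In the deposited delta Ct table, log2-scale values equal Ct minus 1 reference per mouse and card, within 7.11e-15 cycles. The authors computed the fold, a ratio, per the file headers, from the group averages of delta Ct (2 to the power of control minus experimental). Neither labels nor headers name the software or the reference RNA.

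The sign of delta Ct was turned. Values at or over Ct 35 were missing, repeated wells were averaged, and testing required detection in 3 or more mice of each group (72 of 750 miRNAs). limma 3.58.1 (lmFit, eBayes; R 4.3.3) was fitted on all 72, two-sided, with Benjamini-Hochberg adjustment at 0.05, and was tested on simulated data. Single values were compared by exact permutation over 70 assignments (numpy 2.4.6). Correlations (scipy 1.17.1) were tested by exact permutation over all pairings of the mice. Each numbered mouse was 1 replicate, and their spread sets the precision. The same mouse number in both groups was not taken as a pair in the main tests.

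The members, paralogs, markers and tests were chosen with earlier results of these data known. Named besides the members were their passenger arms, 13 paralogs, control assays used as references, markers, and the 3 miRNAs most like each member. Other references, limits of detection, fills for missing values, filters and tests were tried, as were a block and leaving out mice.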

Additional observations from a re-analysis of the deposited data

How the results depend on the processing

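No log2 difference can be given for miR-93 and its pairs under any setting, since it has no Ct. The log2 differences of miR-106b and miR-25 reversed with Ct alone, at -0.49 and -0.25. They were 1.20 and 1.44 against the mean of the 54 miRNAs and 0.22 and 0.45 against snoRNA202. The other alternatives that keep all mice cannot move these values, as both assays were below Ct 32 in every mouse, and say nothing on direction; neither miRNA was called in any that gives an adjusted p. Leaving out each mouse gave 0.090 to 1.74 for miR-106b and 0.64 to 1.76 for miR-25. The number of miRNAs past the limma threshold was 0, and 1 with any Ct kept (hsa-miR-421, named after its values were seen). Leaving out each mouse gave 0 to 1: miR-1896 without sham mouse 1 and miR-199a-3p without sham mouse 2, named likewise. At an unadjusted limma p under 0.05 there were 10. miR-106b minus miR-25 ranged from -0.63 to 0.26 without each mouse, miR-25 minus miR-363 from -0.67 to 0.23, and miR-25 minus miR-92a from 1.63 to 2.37. The last kept its value of 2.07 by limma, where it passed with mouse number as a replicate block (adjusted p = 0.0374) and without it (0.0309, added after the data were seen), and missed by the exact test, which cannot pass here. Deviations of same-numbered mice correlated between -0.38 and 0.020 over the 54 miRNAs. These values show no likeness by number but cannot exclude that the numbers pair mice. The block changed no other call. At Ct 32 as the limit, miR-25 minus miR-363 had too few values. The correlation between members was 0.17 with Ct alone. Against the deposited reference it was 0.45 without the 2 mice farthest from the median. Against the mean reference it was 0.73 and 0.72 with and without them. Each reference is a value that both levels share, which can itself raise r. The r values against a reference therefore cannot show that the members vary together.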
